A study of Mus musculus with 14 samples.

Results

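The genes of the AMPA and NMDA receptor subunits were followed in single cells of the mouse nucleus accumbens after morphine or mock treatment. The 10 members were chosen by symbol, Gria1, Gria2, Gria3, Gria4, Grin1, Grin2a, Grin2b, Grin2c, Grin2d and Grin3a, and all 10 had a row among the 20856 symbols that the accumbens tables share. The morphine group consisted of 4 Drop-seq pools from male C57BL/6 mice given morphine sulfate into the peritoneum, and the mock group of 4 pools from mice of the same sex and strain given saline the same way. Each pool came from 2 mice. In both groups replicate 1 was taken at 42 to 45 days of age, replicate 2 at 37 to 42 days, replicate 3 at 78 to 82 days and replicate 4 at 78 days. Dose and time from injection to collection are not given in the sources used here. A further 3 morphine and 3 mock libraries held oligodendrocytes sorted from whole brains at 70 days and sequenced in bulk.

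The pools gave 2747 to 5700 cells and 6703052 to 19889637 UMIs in the morphine group, against 2868 to 5577 cells and 7846553 to 24160207 UMIs in the mock group, 32533 cells in all. A UMI marks 1 captured transcript end, and levels are given per 1000000 UMIs of the same class and pool (CPM). Of the cells, 31345 fell into 21 classes named from marker genes, and a class name means cells that resemble the named type in those genes. D1 medium spiny neurons (5501 cells) had 872 CPM of Drd1 and 2602 CPM of Tac1, D2 medium spiny neurons (5722 cells) had 13600 CPM of Penk and 306 CPM of Adora2a, and oligodendrocyte precursors (1191 cells) had 1518 CPM of Pdgfra. Pool medians of the mitochondrial share of UMIs per cell averaged 5.62% ± 0.98 in the morphine pools and 3.74% ± 0.68 in the mock pools (SD, n = 4 each). The 10 members held 148009 (Gria2), 49942 (Gria1), 41811 (Grin2b), 30254 (Gria3), 19199 (Grin1), 8919 (Gria4), 3317 (Grin3a), 1030 (Grin2a), 756 (Grin2c) and 342 UMIs (Grin2d). The rarest members therefore rested on few UMIs per class and pool.

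AMPA receptors are tetrameric channels that carry the fast part of the excitatory current at glutamate synapses, and Gria1 to Gria4 encode their subunits. Receptors that hold the GluA2 subunit, encoded by Gria2, are nearly impermeable to calcium, whereas receptors without it let calcium pass. NMDA receptors join the obligatory GluN1 subunit (Grin1) with GluN2 subunits (Grin2a to Grin2d), which set the speed of the current and its block by magnesium, or with GluN3 subunits such as the one encoded by Grin3a. In the accumbens these receptors receive the glutamate input to medium spiny neurons, and drugs of abuse are known to change their subunit makeup at synapses.

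The calcium permeability of AMPA receptors is known to depend on 1 codon of the pore loop, called the Q/R site, so the coding sequence around it is given for the 4 genes with the codon of the Q/R site in capitals (GENCODE vM21 transcripts, build GRCm38, coding strand).
Gria1: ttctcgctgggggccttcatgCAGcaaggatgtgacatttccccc
Gria2: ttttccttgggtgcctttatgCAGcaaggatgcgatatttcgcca
Gria3: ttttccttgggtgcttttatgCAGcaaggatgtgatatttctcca
Gria4: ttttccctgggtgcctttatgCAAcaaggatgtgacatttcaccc
Each stretch is 45 bases long and lies within 1 coding exon, at chr11:57243073-57243117 on the plus strand (Gria1), chr3:80706890-80706934 on the minus strand (Gria2), chrX:41610244-41610288 on the plus strand (Gria3) and chr9:4464116-4464160 on the minus strand (Gria4). Compared with Gria2, the stretch differed at 9 bases in Gria1, at 6 in Gria4 and at 3 in Gria3. All 4 genomic codons, CAG in 3 genes and CAA in Gria4, encode glutamine. In the Gria2 transcript this codon is known to be edited so that it is read as arginine, but UMIs counted per gene do not show whether a transcript was edited. What the counts show is how much Gria2 each class held beside the other 3 genes.

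Gria2 was the member with the most UMIs in medium spiny neurons, the projection neurons of the accumbens. It averaged 1989 ± 194 CPM in D2 neurons and 1937 ± 149 CPM in D1 neurons (SD, n = 8 pools each). Gria1, whose subunit is known for entering synapses during potentiation, averaged 630.0 ± 53.8 CPM in D2 neurons and 600.1 ± 39.6 CPM in D1 neurons. Both neuron types held the 2 genes at levels whose ranges over pools overlapped. Gria3 followed with 366 ± 54.8 CPM in D2 neurons and 341 ± 34.8 CPM in D1 neurons, and Gria4 was low with 51.3 ± 10.5 CPM in D2 neurons and 58.4 ± 9.80 CPM in D1 neurons. UMIs sit at transcript ends and were not divided by gene length, and genes can be captured with different efficiency. Differences between genes within a class are therefore given as UMIs, not as subunit ratios of the receptor. Excitatory neurons, which carry glutamate transporter genes such as Slc17a7, had the highest mean of Gria3, 477 ± 87.8 CPM (n = 7 pools with at least 10 cells).

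**Figure D1:**
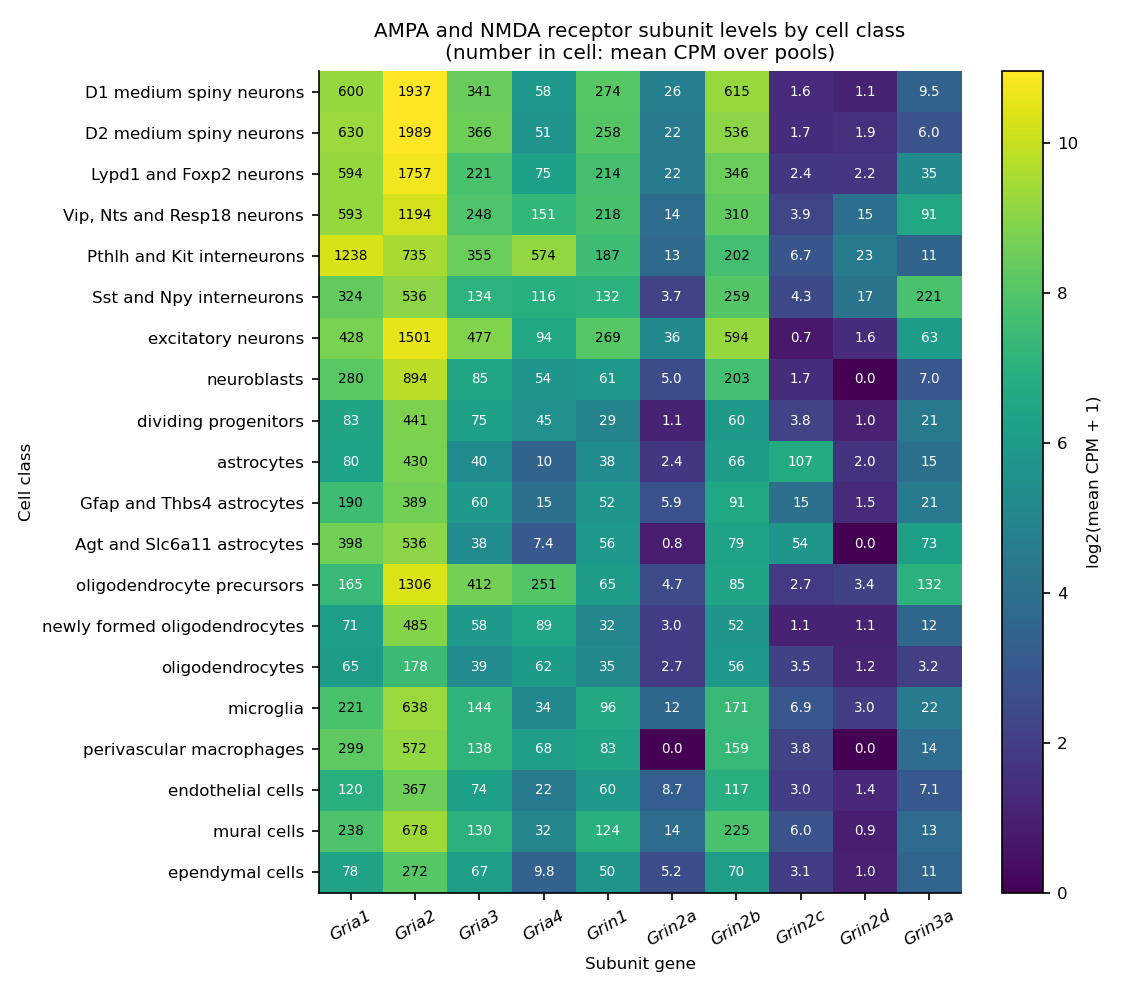
Mean level of each subunit gene (columns) in each cell class (rows), as UMIs per 1000000 UMIs of the class, averaged over pools. Gria2 is the highest member in most classes, Gria1 and Gria4 peak in the Pthlh and Kit interneurons, and Grin2c peaks in astrocytes.

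The interneurons marked by Pthlh and Kit (280 cells), which also held 482 CPM of the parvalbumin gene Pvalb, had a different AMPA profile. Gria1 averaged 1238 ± 298 CPM there, and its lowest pool (863 CPM) lay above the highest pool of D2 neurons (701 CPM). Gria4, whose subunit is typical of fast-spiking interneurons, averaged 574 ± 97.9 CPM, against 58.4 ± 9.80 CPM in D1 neurons. Gria2 averaged only 735 ± 149 CPM, with pools from 564 to 1009.8 CPM, all below the lowest pool of D1 neurons (1619 CPM). These are levels given as a description, since the classes come from clustering the same cells. Among the 190 pairs of neighbouring classes in the orders of the 10 members, only 2 had ranges over pools that did not touch, Gria1 in Pthlh and Kit interneurons above D2 neurons and Gria4 in the same interneurons above oligodendrocyte precursors. In all other pairs the ranges over pools overlapped.

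Gria2 made up 25.6% ± 4.93 of the UMIs of Gria1 to Gria4 in the Pthlh and Kit interneurons (SD, n = 8), with pools from 18.7% to 34.5%. In D1 neurons the share was 65.9% ± 1.86 and in D2 neurons 65.5% ± 2.14, with no pool of either below 62.4%. The shares of the interneurons and of the medium spiny neurons did not overlap in any pool. Interneurons with the neuropeptide genes Sst and Npy (209 cells, 7 pools) took a middle place with 48.2% ± 5.77, as did the neurons marked by Vip, Nts and Resp18 with 54.3% ± 5.17. In the Pthlh and Kit interneurons Gria1 took 42.4% ± 5.94 and Gria4 19.8% ± 1.94 of these UMIs, against 20.5% ± 1.32 and 1.98% ± 0.262 in D1 neurons. Astrocytes had the highest Gria2 share, 76.4% ± 7.23.

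**Figure D2:**
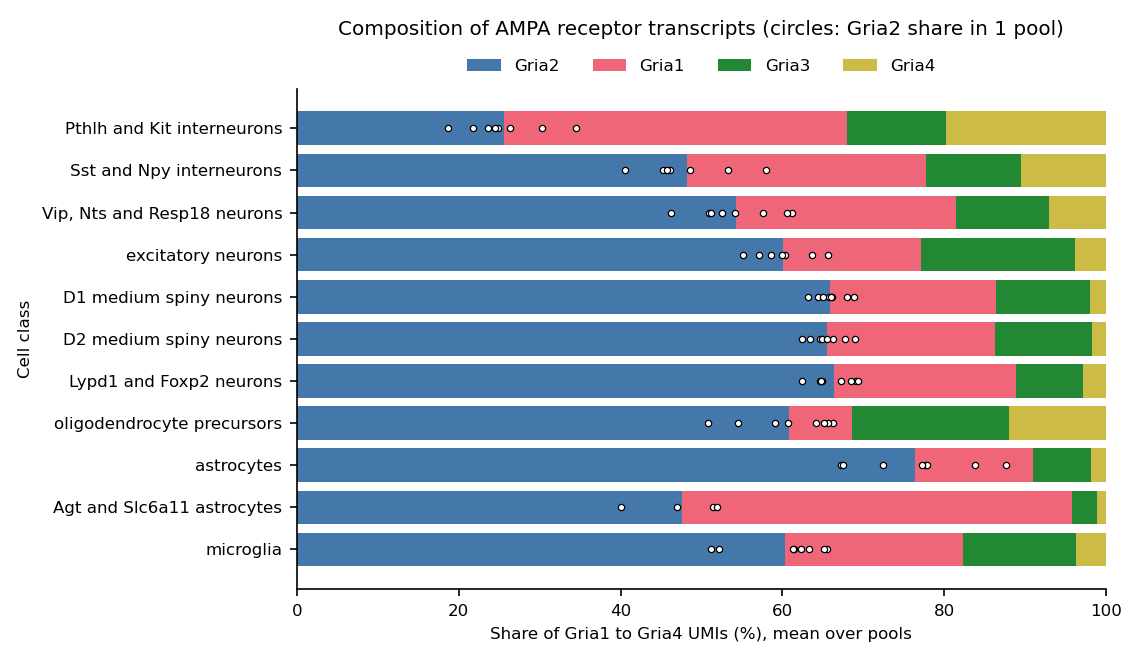
Share of Gria1 to Gria4 among their summed UMIs in each cell class, in percent, as stacked bars of the mean over pools, with circles for the Gria2 share of single pools. The Pthlh and Kit interneurons have a mean Gria2 share of 25.6% and astrocytes one of 76.4%.

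Among the NMDA receptor genes, Grin2b had more UMIs than Grin1 in the 3 classes where both were highest. Grin1 averaged 274 ± 74.8 CPM in D1 neurons, 269 ± 55.8 CPM in excitatory neurons and 258 ± 53.8 CPM in D2 neurons. Grin2b averaged 615 ± 90 CPM in D1 neurons, 594 ± 122 CPM in excitatory neurons and 536 ± 96.5 CPM in D2 neurons. In the Pthlh and Kit interneurons Grin2b was lower, at 202 ± 93.9 CPM, with pools from 48.3 to 345 CPM. Grin2d, known in the forebrain as an interneuron subunit, was at most 50.1 CPM in any pool. By mean CPM its highest classes were the Pthlh and Kit interneurons (22.9 ± 12.7 CPM) and the Sst and Npy interneurons (17.4 ± 12.5 CPM). The Vip, Nts and Resp18 neurons, not shown here to be interneurons, came next with 15 ± 7.48 CPM. In D2 neurons Grin2d averaged 1.89 ± 1.55 CPM. Grin3a, whose subunit lowers calcium entry through NMDA receptors, averaged 221 ± 97.8 CPM in Sst and Npy interneurons and 132 ± 55.8 CPM in oligodendrocyte precursors. In D1 and D2 neurons its pools ranged from 2.66 to 23.1 CPM and from 3.20 to 10.7 CPM. Whether reads were counted by strand is not given in the sources used here, and antisense transcripts that overlap Grin1 (Grin1os), Grin2b (Gm14329, Gm22892 and Gm26653), Grin2c (Gm25837) and Grin2d (Gm45441) cannot be told apart from these genes.

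In droplet data, RNA set free from broken cells is known to be counted in droplets of other cells. Snap25, a gene of the synaptic release machinery of neurons, averaged 1010.0 ± 496 CPM in microglia and 2083 ± 202 CPM in D1 neurons. Members were therefore also counted per 100 Snap25 UMIs in the same class and pool, since RNA from one source keeps its genes in one ratio. In oligodendrocyte precursors, the dividing cells that give rise to oligodendrocytes and receive synapses from neurons, Gria2 came to 289 ± 147 UMIs per 100 Snap25 UMIs, with pools from 120.3 to 586. Microglia had 67.9 ± 21.9, endothelial cells 79.3 ± 20.5 and D1 neurons 93.6 ± 10.5 (SD, n = 8 each). All 8 pools of precursors lay above the highest microglia pool (91.2).

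Gria3 and Gria4 stood out in oligodendrocyte precursors in the same way. Gria3 reached 92.1 ± 48.6 UMIs per 100 Snap25 UMIs, with pools from 44.2 to 186, against 9.09 to 28.1 in microglia. Gria4 reached 53.5 ± 18.3, with pools from 27.4 to 72.1, against 2.27 to 9.38 in microglia. Grin3a reached 28.5 ± 17.2, with pools from 12 to 65.1, against 0 to 5.57 in microglia. In all 3 genes the ranges of precursors and microglia did not overlap. Grin1 at 12.7 ± 7.96 and Grin2b at 14.4 ± 5.67 in precursors had means within the pool ranges of microglia, 3.31 to 18.6 and 10.1 to 26.5. The precursor pools ranged from 3.33 to 26.9 for Grin1, with 2 of 8 above the highest microglia pool, and from 2.33 to 19.8 for Grin2b, so neither gene was set apart from microglia. In CPM, oligodendrocyte precursors held 1306 ± 256 of Gria2, 412 ± 74.5 of Gria3, 251 ± 35 of Gria4 and 132 ± 55.8 of Grin3a. Gria1 took only 7.85% ± 2.96 of their AMPA subunit UMIs.

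Gria4 was also above the background of microglia in the later oligodendrocyte lineage. It came to 33.2 ± 4.00 UMIs per 100 Snap25 UMIs in newly formed oligodendrocytes, with pools from 25.7 to 38.8, and to 24.3 ± 9.98 in oligodendrocytes, with pools from 13.5 to 43.8. Every pool of both classes was above the highest pool of microglia (9.38). In CPM the level was 89 ± 32.4 in newly formed oligodendrocytes and 62.3 ± 10.7 in oligodendrocytes.

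Astrocytes were the class of Grin2c, an NMDA receptor subunit gene known from cerebellar granule cells and from astrocytes. Grin2c averaged 107 ± 27.7 CPM in astrocytes, 54.5 ± 23.4 CPM in the astrocytes marked by Agt and Slc6a11 (6 pools) and 15.4 ± 11.7 CPM in those marked by Gfap and Thbs4. Its pools ranged from 0.381 to 2.92 CPM in D1 neurons, so few of its UMIs fell in that class at this depth. Per 100 Snap25 UMIs, Grin2c came to 42.5 ± 28 in astrocytes, with pools from 15.4 to 100, against 0 to 1.96 in microglia. Gria2 per 100 Snap25 UMIs was 152 ± 59.1 in astrocytes, with pools from 89.1 to 276, which overlapped the range of endothelial cells, 54.3 to 116. The Agt and Slc6a11 astrocytes held 398 ± 139 CPM of Gria1 and 72.9 ± 26.4 CPM of Grin3a. They had too few Snap25 UMIs for the ratio.

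**Figure D3:**
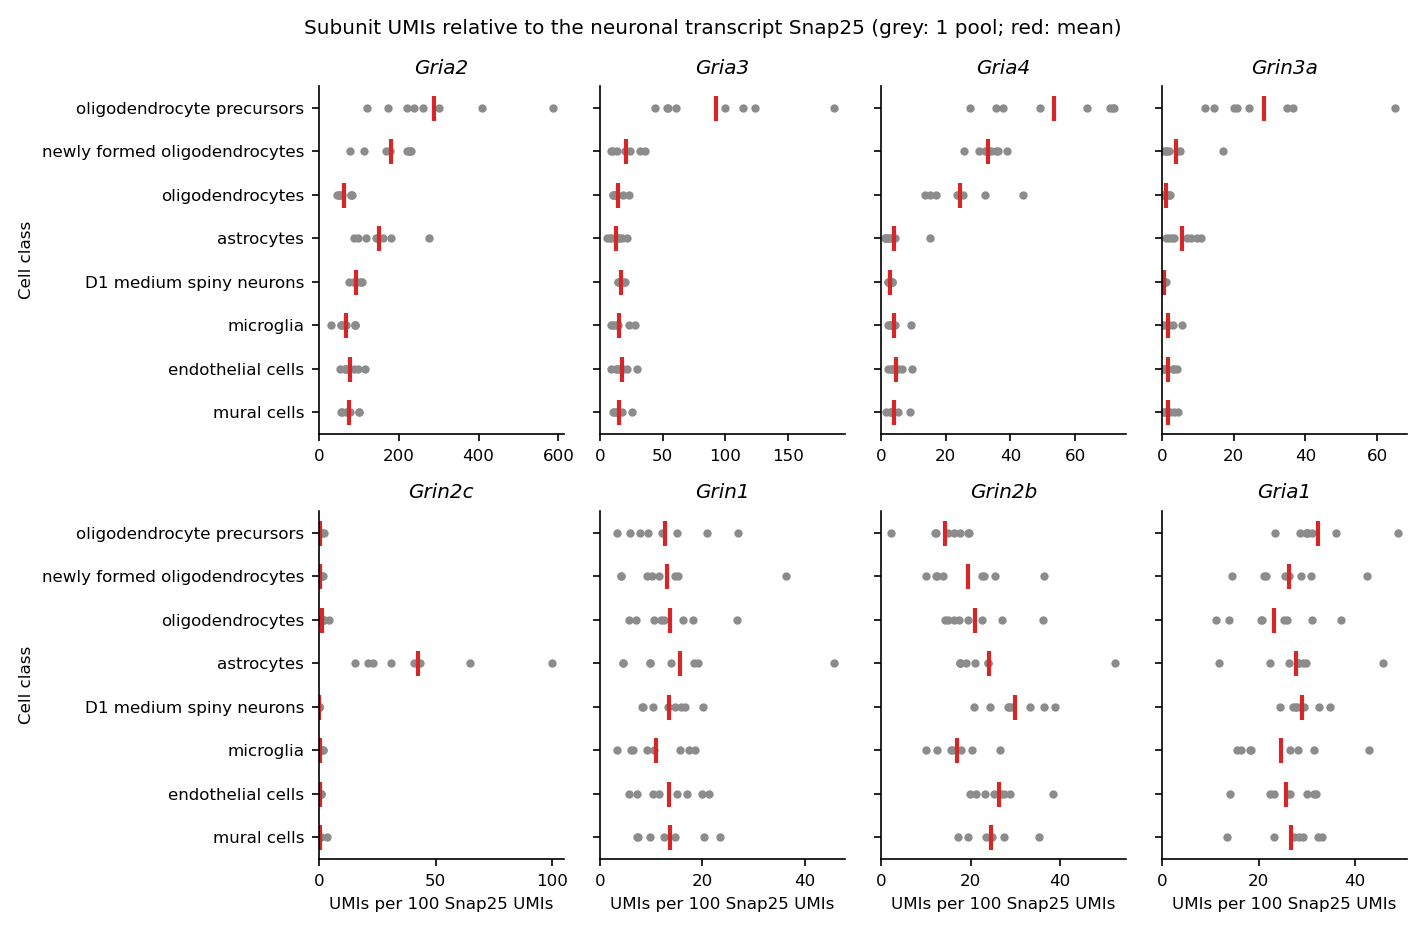
UMIs of 8 subunit genes per 100 Snap25 UMIs in 8 cell classes, with 1 grey point per pool and the mean in red. Gria2, Gria3, Gria4 and Grin3a are highest in oligodendrocyte precursors and Grin2c in astrocytes, whereas the pools of neurons and glia overlap for Grin1.

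Grin2a, the subunit gene that rises as synapses mature, could not be compared over all pools. In D1 neurons it had 108, 4.87, 5.03 and 3.76 CPM in the morphine pools, against 74.5, 3.18, 4.62 and 1.90 CPM in the mock pools in replicates 1 to 4. The replicate 1 pools of both groups stood apart from all others, and D2 neurons showed the same split with 86.4, 2.78, 2.13 and 2.67 CPM in the morphine pools, against 68.8, 3.05, 4.59 and 3.04 CPM in the mock pools. In D1 neurons the mean of the replicate 1 pools was 23.5 times that of the other 6. The tables of the replicate 1 pools use another set of gene symbols than those of the other 6 pools. Those mice were 42 to 45 days old. Replicate 2, at 37 to 42 days, had 4.87 CPM (morphine) and 3.18 CPM (mock) in D1 neurons. In GENCODE vM21 the 3 coding transcripts of Grin2a have 3′ ends up to 9929 bases apart. Whether the gene models or the mice set the split was not tested. For Gria1 to Gria4, Grin1 and Grin2b in D1 neurons, the same ratio of means lay between 0.87 (Gria3) and 1.45 (Grin1). For these genes it lay between 0.77 (Gria3) and 1.21 (Grin1) in D2 neurons. Over all cells it lay between 0.78 (Grin2b) and 1.22 (Grin1), and in excitatory neurons between 0.59 (Gria4) and 1.24 (Grin1). Smaller departures of replicate 1 were thus present beyond Grin2a.

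Each member was also matched to the genes whose mean log2(CPM + 1) had the most similar pattern over the 21 classes, out of 9235 genes with at least 50 CPM in 1 class. The 2 nearest genes were Cnnm1 (r = 0.96) and Tenm2 (0.92) for Gria1, Abi2 (0.94) and Lrrtm1 (0.93) for Gria2, Trnp1 (0.94) and Ica1 (0.93) for Gria3, and Uchl3 (0.85) and Tmem169 (0.84) for Gria4. For the NMDA receptor genes they were Atp6v1d (0.97) and Nptn (0.97) for Grin1, Mark1 (0.86) and Sptb (0.83) for Grin2a, Rbfox3 (0.97) and Arf3 (0.97) for Grin2b, Cyp4f14 (0.91) and Glud1 (0.91) for Grin2c, Galntl6 (0.90) and Gjd2 (0.88) for Grin2d, and Ptprt (0.83) and Tox (0.81) for Grin3a. Rbfox3 encodes a nuclear protein used as a marker of neurons, and Glud1 an enzyme of glutamate breakdown. The classes share libraries and background RNA, and Pearson's r over 21 classes is given as a description.

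After morphine, no member passed the test in any of the 20 classes tested. Of 106 tests of a member in a class, 0 passed an adjusted p under 0.05, beside 11 of 112970 tests over all genes (0.00974%). At an unadjusted p under 0.05 there were 3 (2.83%), beside 2.76% over all genes. The median log2 difference of the members was -0.09, and the median of all genes lay between -0.0164 and 0.0143 in every class. The tests were edgeR's quasi-likelihood tests on UMIs summed per pool and class, with Benjamini-Hochberg adjustment over all genes of the class. Their log2 differences follow TMM scaling of each pool, so they can differ from the ratio of the CPM values. DESeq2, scaling without the mitochondrial genes, keeping only cells with at most 10% mitochondrial UMIs and the other alternatives gave no call of a member either.

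In D1 neurons Gria1 had 566, 591, 603 and 582 CPM in the morphine pools, against 536, 650.3, 646 and 627 CPM in the mock pools in replicates 1 to 4. The morphine pools lay within the range of the mock pools, and the log2 difference was 0.00 (95% interval -0.26 to 0.26). Gria2 in D1 neurons had 1889, 1619, 1953 and 2123 CPM in the morphine pools, against 1897, 1973, 2002 and 2038 CPM in the mock pools, with a log2 difference of 0.01 (95% interval -0.26 to 0.29). The groups overlapped, and the lowest and the highest of the 8 pools were both morphine pools. Gria3 in D1 neurons had 341, 305, 353 and 363 CPM in the morphine pools, against 272, 366, 369.7 and 359 CPM in the mock pools, a log2 difference of 0.07 (95% interval -0.23 to 0.37). The mock pool of replicate 1 was the lowest. Gria4 had 57.8, 46.9, 62.9 and 51.8 CPM in the morphine pools, against 47.5, 76.5, 61 and 63 CPM in the mock pools, a log2 difference of -0.13 (95% interval -0.49 to 0.23).

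In D2 neurons the AMPA receptor genes also overlapped between the groups. Gria1 had 575, 614, 646 and 675 CPM in the morphine pools, against 560.0, 701, 586 and 684 CPM in the mock pools, a log2 difference of 0.06 (95% interval -0.23 to 0.35). Gria2 had 1808, 1673, 2031 and 2201 CPM in the morphine pools, against 1887, 1983, 2238 and 2091 CPM in the mock pools, a log2 difference of -0.01 (95% interval -0.31 to 0.28). Gria3 had 347, 356, 399 and 399 CPM in the morphine pools, against 252, 385, 436 and 355 CPM in the mock pools, a log2 difference of 0.14 (95% interval -0.20 to 0.49). In this gene too the mock pool of replicate 1 was the lowest. Gria4 in D2 neurons, at a low level, had a log2 difference of 0.03 (95% interval -0.41 to 0.47).

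Among the NMDA receptor genes, Grin1 in D1 neurons had 419, 220.3, 309 and 195 CPM in the morphine pools, against 296, 295, 269.9 and 190.5 CPM in the mock pools, a log2 difference of 0.19 (95% interval -0.28 to 0.66). The morphine pool of replicate 1 was the highest of the 8. Grin1 in D2 neurons had 316, 211, 319.9 and 200.4 CPM in the morphine pools, against 275, 306, 242 and 189.8 CPM in the mock pools, a log2 difference of 0.12 (95% interval -0.29 to 0.53). Grin2b in D1 neurons had 604, 603, 724 and 494 CPM in the morphine pools, against 535, 739.6, 674 and 547 CPM in the mock pools, a log2 difference of 0.03 (95% interval -0.29 to 0.35). For Grin2b in D2 neurons it was 0.12 (95% interval -0.25 to 0.49). For Gria1 and Gria2 the intervals in D1 and D2 neurons leave out log2 differences beyond 0.35 in either direction, and those of Grin1 reach 0.66 in D1 neurons and 0.53 in D2 neurons. The morphine difference was also compared directly between D1 and D2 neurons, with the pool as a block. Of 8 members tested, 0 differed at an adjusted p under 0.05, beside 6 of 12105 genes (0.0496%), and 0 did at an unadjusted p under 0.05, beside 4.02% of all genes. The D1 minus D2 difference of the log2 differences was -0.05 (95% interval -0.18 to 0.09) for Gria1, 0.02 (95% interval -0.11 to 0.16) for Gria2 and -0.09 (95% interval -0.23 to 0.05) for Grin2b.

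**Figure D4:**
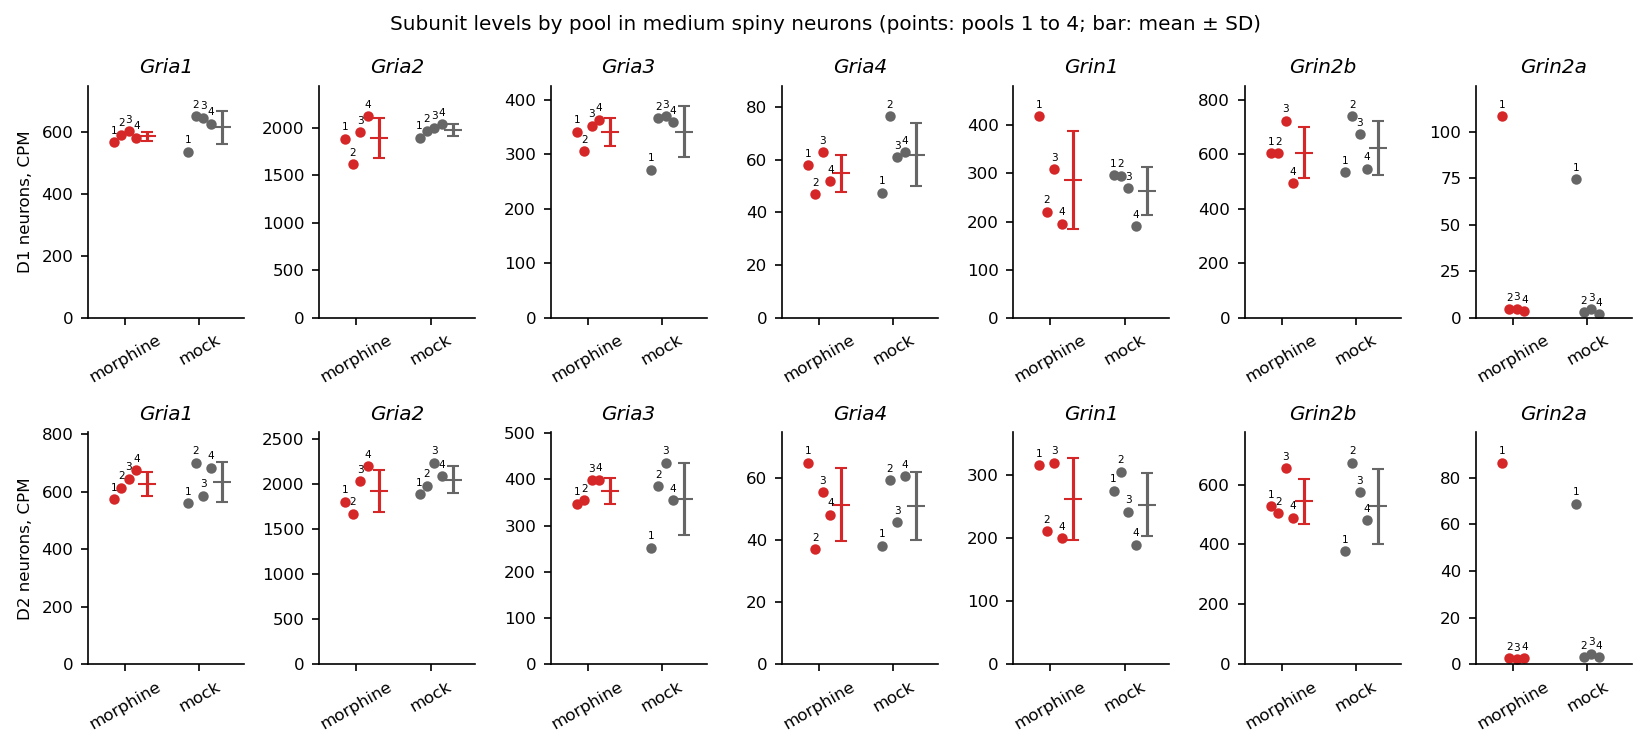
Level of 7 subunit genes in D1 and D2 medium spiny neurons, as UMIs per 1000000 UMIs (CPM), with 1 point per pool, morphine left of mock, and lines at the group means. The groups overlap in every panel, and Grin2a is split into the replicate 1 pools and all others.

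In the Pthlh and Kit interneurons Grin2b had 48.3, 196, 169 and 157 CPM in the morphine pools, against 147, 267, 345 and 288 CPM in the mock pools. Of the 4 morphine pools, 3 lay within the mock range and 1 below it, and the log2 difference was -0.82 (95% interval -1.38 to -0.25), with an unadjusted p of 0.00635 and an adjusted p of 0.999 (edgeR). The lowest pool, morphine replicate 1, held 24 cells of this class. Gria2 in the same class had 677, 564, 569.9 and 755 CPM in the morphine pools, against 1009.8, 827, 811 and 667 CPM in the mock pools, a log2 difference of -0.31 (95% interval -0.71 to 0.09). Gria1 differed by -0.26 (95% interval -0.67 to 0.16) and Gria4 by -0.24 (95% interval -0.65 to 0.16). The share of Gria2 among the AMPA receptor UMIs was 25.0% ± 4.80 in the morphine pools and 26.1% ± 5.73 in the mock pools (SD, n = 4 each). All 6 members tested in this class had a negative log2 difference, with a median of -0.26, and none passed the adjusted threshold.

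Elsewhere, 2 members passed an unadjusted p under 0.05. Grin3a in Sst and Npy interneurons had 68.5, 260.2, 151 and 191 CPM in the morphine pools, against 274, 376 and 228 CPM in the mock pools, where mock replicate 1 had under 10 cells. The groups overlapped, and the log2 difference was -0.63 (95% interval -1.23 to -0.03), with an adjusted p of 1 (edgeR), and -0.39 without mock replicate 3. Gria1 in the Gfap and Thbs4 astrocytes had 123, 243, 44.8 and 102 CPM in the morphine pools, against 159, 279, 360.0 and 208 CPM in the mock pools, a log2 difference of -0.85 (95% interval -1.62 to -0.09) and an adjusted p of 0.984 (edgeR). Over the alternatives this difference lay between -1.54 (older pools alone) and -0.20 (younger pools alone), and it was -0.53 with doublets kept, -1.30 without morphine replicate 2 and -0.60 without morphine replicate 3. None of them was called. The log2 difference of Snap25 in that class was 0.10, with a 95% interval of -0.58 to 0.77. Grin2d in the Vip, Nts and Resp18 neurons had 11.4, 17.1, 6.44 and 5.06 CPM in the morphine pools, against 16.6, 25.3, 24.6 and 13.7 CPM in the mock pools. The groups overlapped there, and the log2 difference was -0.72 (95% interval -1.52 to 0.08), or -1.79 in the older pools alone, -1.22 without morphine replicate 2 and -0.46 in the younger pools alone.

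In oligodendrocyte precursors Gria2 had 1295, 1074, 1526 and 1632 CPM in the morphine pools, against 1389, 823, 1312 and 1401 CPM in the mock pools. Mock replicate 2 was the lowest, the other pools of both groups overlapped, and the log2 difference was 0.22 (95% interval -0.23 to 0.67). Gria3 differed by 0.05 (95% interval -0.39 to 0.49), Gria4 by -0.05 (95% interval -0.49 to 0.39) and Grin3a by 0.07 (95% interval -0.56 to 0.71). Grin2c in astrocytes had 122, 84.6, 108 and 71.5 CPM in the morphine pools, against 112, 119, 157 and 80.6 CPM in the mock pools, a log2 difference of -0.19 (95% interval -0.66 to 0.29). Red blood cells, where Grin3a did not overlap on 4 UMIs, were left out of the next count. In all other classes, 1 of 196 pairs of a member and a class with a UMI had groups that did not overlap, beside 2.47% over all genes. It was Grin2a in Sst and Npy interneurons, which rested on 4 UMIs.

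**Figure D5:**
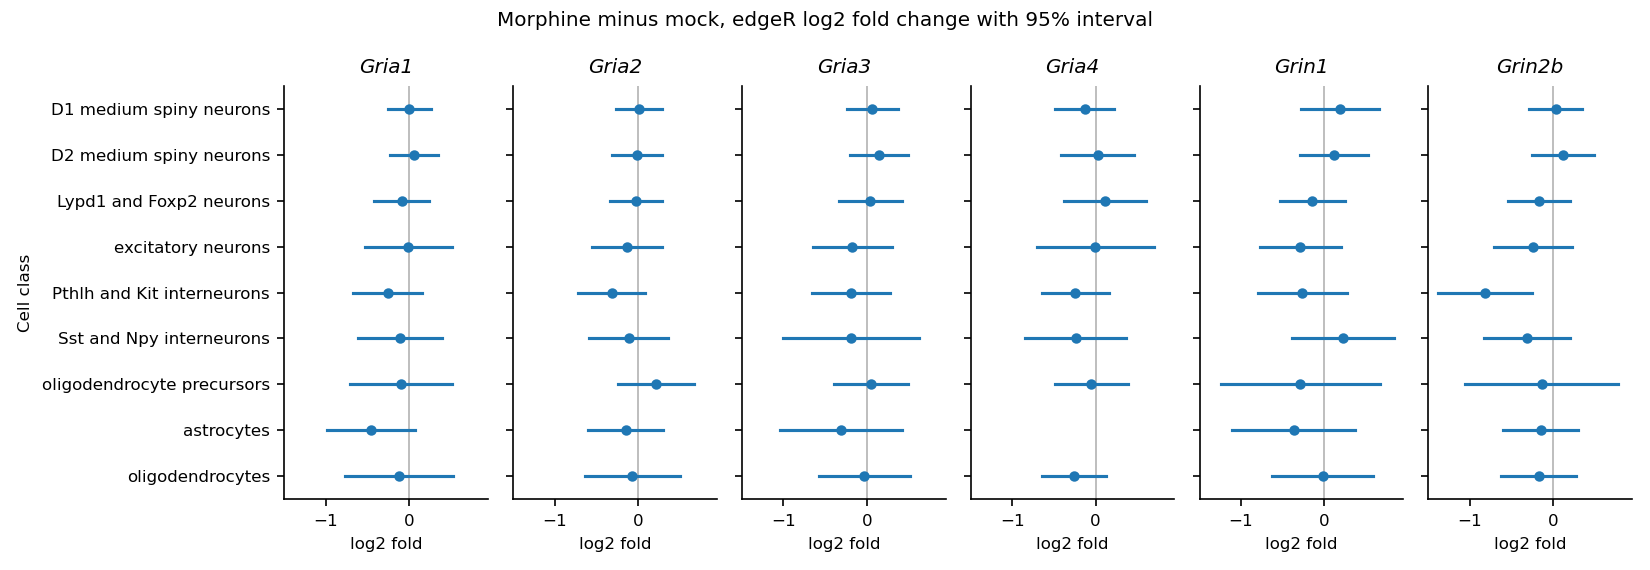
Log2 difference, morphine against mock, of 6 subunit genes in 9 cell classes, with the 95% interval of edgeR's quasi-likelihood fit. The points lie on both sides of 0 and no test passed the adjusted threshold.

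The pools also differ in age, at 78 to 82 days in the older and 37 to 45 days in the younger pools, with both groups at each age. Of 114 tests of a member in a class, 0 passed an adjusted p under 0.05 with treatment as a covariate, beside 50 of 121424 over all genes (0.0412%). At an unadjusted p under 0.05 there were 17 (14.9%), beside 10.2% over all genes. They include Grin2a in D1, D2, Lypd1 and Foxp2 and excitatory neurons, where the replicate 1 pools stand apart. The part of that split in the share of the members or of all genes was not tested. The 14.9% is therefore not read as a result about the members. Age and whatever else the pools of 1 age share cannot be told apart. Gria4 in excitatory neurons averaged 131 ± 16.7 CPM in the older pools (n = 3) and 66.2 ± 9.77 CPM in the younger pools (SD, n = 4). The ranges did not overlap, but the share of all genes without overlap between the ages is not given here. The log2 difference was 1.03 (95% interval 0.55 to 1.51), with an adjusted p of 0.428 (edgeR). In the Vip, Nts and Resp18 neurons Gria4 differed by 0.77 (95% interval 0.24 to 1.30), with an adjusted p of 0.233.

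In medium spiny neurons the age differences of Gria2 had narrower intervals. Gria2 averaged 2140.1 ± 96.1 CPM in older and 1838 ± 131 CPM in younger pools of D2 neurons, a log2 difference of 0.26 (95% interval 0.01 to 0.52). In D1 neurons it averaged 2029 ± 71.9 CPM in older and 1845 ± 155 CPM in younger pools, a log2 difference of 0.20 (95% interval -0.05 to 0.45). Grin2b in D1 neurons differed by 0.03 (95% interval -0.29 to 0.35) and Grin1 by -0.30 (95% interval -0.74 to 0.14). The log2 difference of Grin2a in D1 neurons, -3.61 (95% interval -5.72 to -1.50), rests on the high values of the replicate 1 pools described above. What set those values was not tested.

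In oligodendrocyte precursors Grin1 averaged 34.7 ± 19.1 CPM in the older pools and 95.1 ± 38 CPM in the younger pools (SD, n = 4 each). The ranges did not overlap, again without a share over all genes to set beside it. The log2 difference was -1.42 (95% interval -2.20 to -0.63), with an adjusted p of 0.154 (edgeR). It passed the adjusted threshold in some alternatives, among them the class gated by each cell's own markers (-1.62, adjusted p = 0.0488). In endothelial cells, which are not known for synaptic receptors, Grin1 differed by -1.24 (95% interval -1.99 to -0.49), with an adjusted p of 0.168. Grin1 had a negative log2 difference in every class tested, among them oligodendrocytes (-0.65), microglia (-0.88) and mural cells (-0.74). Snap25 differed by -0.33 in precursors and by -0.43 in endothelial cells, and the part of free neuronal RNA in these values was not tested. The replicate 1 pools, which are among the younger pools, had the highest Grin1 in precursors, 133 CPM (morphine) and 122 CPM (mock). Those of replicate 2 had 69.6 CPM (morphine) and 56.0 CPM (mock), and the older pools 13.3 to 53.2 CPM. In D1 neurons the mean of Grin1 in the replicate 1 pools was 1.45 times that of the other pools. How far the replicate 1 pools set the age difference of Grin1 was not tested.

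Whether the morphine difference depended on age was tested with a product term. Of 122 tests of a member in a class, 0 passed an adjusted p under 0.05, beside 17 of 133768 over all genes (0.0127%). At an unadjusted p under 0.05 there were 21 (17.2%), beside 3.77% over all genes. Of the 21, 6 were in endothelial cells and 5 in microglia. The 3.77% pools all classes, and the share of all genes within endothelial cells or microglia alone is not given here. The 17.2% is therefore not read as a result about the members. Gria2 in endothelial cells had 668, 399, 122 and 194 CPM in the morphine pools, against 470.4, 309, 169.6 and 605 CPM in the mock pools, and Snap25 had 577, 615, 136 and 299.7 CPM in the morphine pools, against 477, 409, 312 and 856 CPM in the mock pools. Both were lowest in morphine replicate 3, and the product term was -1.64 for Gria2 and -1.73 for Snap25 on the log2 scale. The part of Snap25-bearing free RNA in these terms was not tested. In D1 neurons 1 member passed an unadjusted p under 0.05, Grin3a, with a product term of -2.69 (95% interval -4.92 to -0.45) and an adjusted p of 1 (edgeR).

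The other genes of the pathway were taken as a list of 59 symbols, made of kainate, delta and metabotropic receptors, auxiliary subunits, scaffolds and synaptic organizers, of which 58 had a row and 57 were tested in at least 1 class. After morphine 0 of 493 tests passed an adjusted p under 0.05, beside 0.00974% over all genes, and 12 passed unadjusted (2.43%, beside 2.76%). In D1 neurons the smallest p values belonged to Shisa9, an AMPA receptor auxiliary protein, and Cnih3, a chaperone of AMPA receptors. Shisa9 averaged 115 ± 9.69 CPM in the morphine pools and 156 ± 18.1 CPM in the mock pools, a log2 difference of -0.38 (95% interval -0.67 to -0.08). Cnih3 averaged 11 ± 4.25 CPM in the morphine pools and 20.7 ± 8.81 CPM in the mock pools, a log2 difference of -0.80 (95% interval -1.51 to -0.09). In D2 neurons they belonged to Cacng3, a transmembrane AMPA receptor regulatory protein, and again Shisa9. Cacng3 averaged 70.4 ± 7.84 CPM in the morphine pools and 105 ± 24.7 CPM in the mock pools, a log2 difference of -0.50 (95% interval -0.87 to -0.13), and Shisa9 differed by -0.38 (95% interval -0.77 to 0.01). The adjusted p values of these 4 tests were at least 0.999.

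With age, 0 of 534 tests of the list passed an adjusted p under 0.05, beside 0.0412% over all genes, and 78 passed unadjusted (14.6%, beside 10.2%). In D1 neurons Cacng7, of the same regulatory family as Cacng3, averaged 16.8 ± 5.69 CPM in older and 26.8 ± 2.83 CPM in younger pools, a log2 difference of -0.72 (95% interval -1.17 to -0.27). Dlgap3, a scaffold of striatal synapses, averaged 53.2 ± 16.4 CPM in older and 80.5 ± 12.8 CPM in younger pools, a log2 difference of -0.59 (95% interval -1.03 to -0.16). In D2 neurons the kainate receptor gene Grik5 differed by 0.57 (95% interval 0.23 to 0.90) and Shisa7 by -0.62 (95% interval -1.07 to -0.17).

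In the sorted oligodendrocytes, 1 of 10 members, Gria2, was higher after morphine. These libraries held 18306640 to 23456702 reads in genes in the morphine group and 14989118 to 21564115 in the mock group. Per 1000000 reads in genes (CPM), Gria2 had 30.3, 30.5 and 35.3 in the 3 morphine libraries, against 27.1, 25.5 and 26.4 in the 3 mock libraries. The groups did not overlap, and morphine library 3 was the highest. How many of all genes had groups without overlap in these libraries is not given here. The log2 difference was 0.31 (95% interval 0.14 to 0.48), with an adjusted p of 0.0108 (edgeR), in a comparison where 2326 of 15759 genes were called (14.8%) and 1275 were called higher (8.09%). Without morphine library 3 the difference was 0.25, with an adjusted p of 0.117. The authors' deposited table gives 0.33 (SE 0.11) with an adjusted p of 0.0177 for Gria2. The accumbens pools gave Gria2 a log2 difference of -0.07 (95% interval -0.64 to 0.50) in oligodendrocytes. In newly formed oligodendrocytes of the accumbens it was -0.44 (95% interval -1.15 to 0.27). Neither was called, and both intervals are wide, that of oligodendrocytes including the 0.31 of the sorted cells. In bulk RNA, fewer cells of a type and less RNA per cell cannot be told apart. The 7 markers of oligodendrocyte precursors with a row summed to 30.9 to 33.8 CPM in the morphine libraries and 27.2 to 28.8 CPM in the mock libraries, with 4 of the 7 higher after morphine and none at 0 in all libraries. Other lists moved too. The 10 oligodendrocyte markers summed to 65240 to 66200 CPM in the morphine and 61850 to 64640 CPM in the mock libraries. Those of medium spiny neurons in general summed to 33.0 to 39.8 CPM against 39.9 to 44.2 CPM. Excitatory neuron markers summed to 8.96 to 9.22 CPM against 10.1 to 14.9 CPM, and endothelial markers to 39.7 to 54.6 CPM against 57.0 to 62.0 CPM. The part of any of these cell types in the Gria2 difference was not tested.

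The other members of the sorted cells did not pass the adjusted threshold. Gria4, the member with the most reads there, had 68, 67 and 70 CPM in the morphine libraries, against 70.7, 74.4 and 76.1 CPM in the mock libraries, a log2 difference of -0.08 (95% interval -0.21 to 0.05). Grin2c had 7.17, 7.81 and 6.95 CPM in the morphine libraries, against 6.72, 4.27 and 5.19 CPM in the mock libraries, a log2 difference of 0.44 (95% interval 0.10 to 0.78) with an adjusted p of 0.0818 (edgeR). The groups did not overlap in either gene, nor in Gria1, and the share of all genes without overlap is not given here. The 9 astrocyte markers summed to 639.7 to 701 CPM in the morphine libraries and 630.2 to 746 CPM in the mock libraries. Gria1, at 8.86, 9.01 and 9.85 CPM in the morphine libraries against 10.9, 10.7 and 11.4 CPM in the mock libraries, differed by -0.23 (95% interval -0.47 to 0.01). The remaining 6 members were below 10 CPM in each library.

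Of the list of other pathway genes, 5 of 53 tested passed in the sorted cells, 3 higher and 2 lower after morphine, beside 14.8% over all genes. Lrrtm3, a synaptic adhesion protein, had 39.7, 46.3 and 41.2 CPM in the morphine libraries, against 13.8, 14.9 and 13.9 CPM in the mock libraries, a log2 difference of 1.61 (95% interval 1.43 to 1.79). Its relative Lrrtm2 had 28.3, 22.3 and 24.3 CPM in the morphine libraries, against 42.3, 45.5 and 45 CPM in the mock libraries, a log2 difference of -0.80 (95% interval -0.98 to -0.62). These 2 genes of one family differed in opposite directions. Neither overlapped between the groups, again without a share over all genes to set beside it. The scaffold genes Dlg2 and Dlg3 were higher by 0.51 (95% interval 0.38 to 0.64) and 0.47 (95% interval 0.24 to 0.70). Grm3, a metabotropic glutamate receptor gene, had a log2 difference of -0.17 (95% interval -0.28 to -0.06). Adjusted p values lay between 1.31e-11 (Lrrtm3) and 0.0326 (Grm3) in edgeR's test.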

How the data were processed

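Per the file headers, the deposited accumbens tables give, for each symbol and cell barcode, UMI counts that the authors made with DigitalExpression of the Drop-seq tools. For the sorted cells the deposited table gives read counts without normalization, and 69.5% to 74.3% of each library's reads stood in rows that name no gene and were left out. Per the file headers, a table of the authors' own comparison holds log2 fold changes with p-values, raw and adjusted. HTSeq, DESeq2, DESeq, STAR 2.4.2a and Trimmomatic 0.36 are named with build mm10, and no role, per the submitters' processing notes. The library of the sorted cells was amplified before sequencing, per the labels' protocols, so reads are not independent molecules.

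Of 36000 barcodes, 33216 passed minimums of 300 genes and a mitochondrial share of at most 20% (Python 3.11.15, scanpy 1.11.5). Scrublet removed 683 doublets but marked at most 7 cells in 5 of the 8 pools, so doublets remain there. 47 barcodes occurred in more than 1 pool. Clustering on 2009 variable genes, without the members, 30 principal components, 15 neighbours and Leiden resolution 1 gave 28 clusters, of which 5 (1188 cells, 3.65%) stayed unnamed. The replicate 1 tables use other symbols, and 1234 symbols were renamed before joining. Their 6119 symbols absent from the other tables were left out.

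UMIs were summed per pool and class, using pools of 10 or more cells and classes with 3 or more such pools per group. Tests were edgeR 4.0.16 (R 4.3.3, limma 3.58.1, TMM, filterByExpr), with DESeq2 1.42.0 as an alternative, called at an adjusted p under 0.05 over all genes of a class and checked on simulated counts. Intervals are 95% intervals of the edgeR fit. Ratios to Snap25 needed at least 20 Snap25 UMIs and AMPA shares at least 30 UMIs. Replicate numbers were not taken to pair the pools, which share an age range by number: correlations of same-numbered pools' deviations were 0.63, 0.035, -3.9e-05 and 0.80 over all cells, and a pair was under 0.1 in D1 neurons, D2 neurons and precursors too. In astrocytes (0.12 to 0.44) and oligodendrocytes (0.21 to 0.53) every pair was over 0.1. Pools of 1 group differed far beyond counting error (chi-square per degree of freedom 20.66 to 60.11), so no pool was a copy of another's counts. The sorted libraries' labels do not say whether each is 1 mouse, so their p-values measure the spread between these libraries. Named pathway genes were those called or, with none called, the 2 of smallest p in D1 and in D2 neurons. The members, lists and rules were chosen with earlier results of these data known.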

Additional observations from a re-analysis of the deposited data

Results flagged for a closer look

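Of 51 groups of 4 pools examined with Dixon's test, 6 had 1 pool far from the other 3, where chance flags about 1 in 20. Grin2a accounted for 4 of them. In D1 neurons its replicate 1 pools stood at 108.5 CPM (morphine) and 74.53 CPM (mock), with the other 3 pools at 3.764 to 5.031 CPM in the morphine group and at 1.903 to 4.621 CPM in the mock group. In D2 neurons the replicate 1 pools stood at 86.41 CPM (morphine) and 68.83 CPM (mock), with the others at 2.132 to 2.775 CPM in the morphine group and at 3.036 to 4.586 CPM in the mock group. Gria2 in oligodendrocyte precursors was 822.8 CPM in mock replicate 2, with the other mock pools at 1312 to 1401 CPM. Gria3 in D1 neurons was 271.8 CPM in mock replicate 1, with the other mock pools at 358.7 to 369.7 CPM.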

How the results depend on the processing

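No member was called for morphine against mock in the accumbens classes under any alternative, including each pool left out (0 to 0 calls), each age alone, cells gated by their own markers and both replicate 1 pools left out, and no pathway gene was either. With the replicate number as a replicate block the count of members called stayed 0 in the accumbens, while over all genes the block gave 44 calls in astrocytes and 135 in oligodendrocytes, against 3 in astrocytes and 8 in oligodendrocytes without it. No paired analysis was possible in the sorted cells because their columns could be tied to a group but not to a single sample, so the planned block was not run there. The D1 against D2 difference gave 0 calls throughout.

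Counts by age depended on the processing. The share of all genes called under the same alternatives is not given here. The counts below therefore do not set the members or pathway genes apart from other genes. Members called by age, 0 as reported, numbered 1 with cells gated by their own markers, 1 with doublets kept, 7 in the morphine pools alone and 11 without the filter on low counts, and leaving out 1 pool gave 0 to 7. Grin1 in precursors was called with own-marker gating (-1.62), with doublets kept (-1.23) and without mock replicate 2 (-1.77) or mock replicate 4 (-1.66). The 7 calls without mock replicate 4 included 5 of endothelial cells. Pathway genes called by age, 0 as reported, numbered 1 each with DESeq2, own-marker gating, doublets kept and the mock pools alone, 8 in the morphine pools alone and 15 without the filter, and 0 to 11 with 1 pool left out, the 11 without mock replicate 4. Members called for the product of treatment and age, 0 as reported, numbered 3 without the filter and 0 to 4 with 1 pool left out, the 4 without mock replicate 3. In the sorted cells 1 member was called, and 0 to 2 with 1 library left out: none without morphine library 3, and Grin2c (0.66, adjusted p 0.013 in edgeR) beside Gria2 without mock library 1. The cause was not tested.

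Depth limits the rare members, since Grin2a, Grin2c and Grin2d held 1030, 756 and 342 UMIs in all.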
